A study of Mus musculus with 15 samples.

Results

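Car14, Shank2, Egln3, Gpc1 and Tlr5 are the genes described here, 5 of the 15302 genes in a table of liver RNA counts. They were chosen on their measured values, because the libraries of pair-fed mice stood apart from both other groups while those 2 groups were alike. All 3 comparisons between the groups entered that choice, so the values of these genes are given as a description, with no p-value. All 5 passed the filter on low counts that left 12274 tested genes, and all 5 also passed a stricter filter of 10 CPM in 5 libraries. In that filter CPM is the count scaled to the library's total. The CPM values given below are also scaled by TMM, a factor for each library that ran from 0.9157 to 1.086.

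The livers came from wild-type mice housed singly at about 29°C and kept from 8 weeks of age on a diet that leads to metabolic dysfunction-associated steatohepatitis (MASH), in which fat and inflammation build up in the liver. The PairFed animals were offered each day as much food as the GDF15 animals had eaten on the previous day. The GDF15 animals were injected subcutaneously once daily with 1 nmol/kg of GDF15, a circulating protein that lowers appetite through its receptor in the hindbrain. The Vehicle animals were the controls of the treatment, and what they and the PairFed animals were injected with is not spelled out in the labels. Each group had 5 libraries, and diet, housing and genotype were shared by all 3. PairFed against Vehicle asks what the ration of GDF15-treated animals does by itself, and PairFed against GDF15 asks what differs between animals that were given the same amount of food. All values are those of livers on the MASH diet.

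Pair feeding is the usual control for a treatment that lowers appetite: it equalises how much is eaten, while the timing of the meals can still differ. The 5 genes come from unrelated families. Car14 encodes carbonic anhydrase 14, a membrane enzyme that faces the outside of the cell, interconverts carbon dioxide and bicarbonate, and is known from the hepatocyte surface in mice. Shank2 encodes a large scaffold protein best known from synapses, which in epithelia also holds ion transporters at the membrane. Egln3 encodes a prolyl hydroxylase (PHD3) that marks hypoxia-inducible factors (HIF) for breakdown, and it is itself a target of HIF. Gpc1 encodes glypican 1, a heparan sulfate proteoglycan anchored on the cell surface, where it binds growth factors. Tlr5 encodes the Toll-like receptor for bacterial flagellin, which signals through the adaptor Myd88 and is known to be made by mouse hepatocytes.

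Positions are given for mouse build mm10 with GENCODE M21. Car14 (ENSMUSG00000038526.14) lies on chromosome 3 from 95897768 to 95904691, minus strand. Its exons share 445 bases with those of Aph1a on the opposite strand. Shank2 (ENSMUSG00000037541.21) spans chromosome 7 from 144001928 to 144424494, plus strand, and no other annotated gene shares exon bases with it. Egln3 (ENSMUSG00000035105.5) lies on chromosome 12 from 54178981 to 54203860, minus strand. Gpc1 (ENSMUSG00000034220.7) and Tlr5 (ENSMUSG00000079164.8) are both on the plus strand of chromosome 1, at 92831645 to 92860779 and at 182954788 to 182976044, and 90.1 Mb lie between them. Gpc1 shares 977 exon bases with Ankmy1 on the opposite strand. Ankmy1 had 9 counts in all 15 libraries together. Aph1a averaged 85.9 ± 2.03 CPM in PairFed livers, 87.3 ± 5.16 in GDF15 livers and 86.4 ± 5.63 in Vehicle livers (SD, n = 5 each), a log2 difference of -0.01 ± 0.058 (SE) for PairFed against Vehicle.

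RefSeq promoter sequences (GRCm38.p6) were on hand for 3 of the 5 genes. The 250 bases before the start are printed for them because Egln3 and Tlr5 were both higher in PairFed livers, while Car14 was lower. They read in the direction of transcription, and the last base is the one before the start. Egln3 is at chr12:54203875-54204124 (minus strand), Tlr5 at chr1:182954538-182954787 (plus strand) and Car14 at chr3:95904686-95904935 (minus strand). Capitals mark matches, on either strand, to the HIF core ACGTG, to the TGACG letters of cAMP response elements or to the AGAACA letters of glucocorticoid response elements.
Egln3: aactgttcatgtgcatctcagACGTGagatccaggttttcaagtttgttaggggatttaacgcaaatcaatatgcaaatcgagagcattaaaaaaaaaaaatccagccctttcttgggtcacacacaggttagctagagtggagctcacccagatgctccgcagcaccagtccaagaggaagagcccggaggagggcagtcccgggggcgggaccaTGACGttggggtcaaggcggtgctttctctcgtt
Tlr5: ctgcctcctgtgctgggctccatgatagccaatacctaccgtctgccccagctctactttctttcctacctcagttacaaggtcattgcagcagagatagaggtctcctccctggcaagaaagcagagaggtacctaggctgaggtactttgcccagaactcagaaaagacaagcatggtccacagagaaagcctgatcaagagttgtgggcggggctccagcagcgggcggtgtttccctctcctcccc
Car14: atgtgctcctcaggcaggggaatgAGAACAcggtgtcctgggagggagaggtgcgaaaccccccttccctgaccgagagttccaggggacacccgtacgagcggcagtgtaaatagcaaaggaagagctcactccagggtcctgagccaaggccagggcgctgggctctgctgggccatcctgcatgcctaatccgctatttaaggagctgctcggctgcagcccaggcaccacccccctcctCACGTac

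The letters ACGTG stood in the windows of Egln3, 229 bases before the start, and of Car14, 7 bases before the start on the other strand (printed as CACGT). RefSeq starts Car14 6 bases inside the GENCODE gene, so the last 6 bases of its window lie within the gene as GENCODE has it. RefSeq starts Egln3 14 bases before the GENCODE gene, and the starts of Tlr5 are the same. Of 32851 windows of this length in the RefSeq table, 16.6% held ACGTG. Egln3 also held TGACG at 34 bases before the start, as did 17.8% of all windows, and Car14 held AGAACA at 226 bases, as did 16.1%. The Tlr5 window held none of these letters, nor did any of the 3 hold the forkhead sequence GTAAACA, which stood in 3.17% of windows. The windows were 50.8%, 55.2% and 62.0% G and C in Egln3, Tlr5 and Car14, beside a median of 52.4% over all windows. CpG pairs numbered 10, 4 and 10 in the same order, beside a median of 6. No set of these letters was shared by the pair of higher genes and missing from the lower gene.

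Total counts ran from 10133289 to 12933324 in PairFed libraries, from 8551557 to 10914914 in GDF15 libraries and from 9228127 to 12994187 in Vehicle libraries. The largest gap between neighbouring totals, 10914914 to 12137462, left 5 deeper libraries, of which 4 were PairFed, none was GDF15 and 1 was Vehicle (Vehicle 4). PairFed 1 was the only PairFed library on the shallower side. Numbers after a group's name follow the table's columns and identify no animal. All 10 hepatocyte markers were present in every library, from Alb downwards. In bulk RNA, fewer cells of a type and less of an RNA per cell cannot be told apart. With labels that do not tie the libraries to separate cultures or litters, the errors measure the spread between these samples.

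The 2 genes that were lower in PairFed livers were Car14 and Shank2. Car14 had 29.5, 26.2, 20.6, 23.6 and 27.0 CPM in the 5 PairFed libraries, against 41.5, 39.3, 36.2, 42.5 and 36.8 CPM in GDF15 livers and 36.8, 34.2, 35.0, 42.6 and 34.6 CPM in Vehicle livers. Every PairFed library lay below every library of the other groups, by a margin of several CPM, and the GDF15 and Vehicle ranges overlapped widely. Group means were 25.4 ± 3.39 CPM in PairFed, 39.3 ± 2.79 CPM in GDF15 and 36.6 ± 3.46 CPM in Vehicle livers (SD, n = 5 each). The log2 difference was -0.53 ± 0.09 (SE) for PairFed against Vehicle, or 1.45-fold lower, and -0.63 ± 0.09 for PairFed against GDF15, or 1.55-fold lower. GDF15 against Vehicle gave 0.10 ± 0.09. Raw counts behind these values ran from 257 to 344 in PairFed livers, 325 to 434 in GDF15 livers and 323 to 581 in Vehicle livers, so PairFed counts ran low although most of those libraries were deeper.

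Shank2 had 32.9, 23.5, 25.3, 28.8 and 25.1 CPM in PairFed livers, against 34.4, 39.8, 36.5, 35.6 and 43.9 CPM in GDF15 livers and 42.8, 34.6, 40.0, 31.9 and 39.6 CPM in Vehicle livers. On the TMM scale, the groups overlapped by a single pair of libraries. PairFed 1, the shallow one, lay at 32.9 CPM, above Vehicle 4, the deep one, at 31.9 CPM. Means were 27.1 ± 3.74 CPM in PairFed, 38.05 ± 3.86 CPM in GDF15 and 37.8 ± 4.40 CPM in Vehicle livers (SD, n = 5 each). The log2 difference was -0.48 ± 0.10 (SE) against Vehicle (1.39-fold lower) and -0.49 ± 0.10 against GDF15 (1.41-fold lower), and GDF15 against Vehicle gave 0.01 ± 0.10. The raw counts overlapped throughout, with 296 to 375 in PairFed, 269 to 418 in GDF15 and 344 to 436 in Vehicle livers.

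The 3 genes that were higher in PairFed livers were Egln3, Gpc1 and Tlr5. Egln3 had 22.2, 25.8, 24.2, 25.9 and 24.1 CPM in PairFed livers, against 22.1, 16.6, 17.3, 16.8 and 18.4 CPM in GDF15 livers and 19.7, 16.7, 17.1, 18.6 and 20.1 CPM in Vehicle livers. PairFed libraries were all above the other 10, though PairFed 1 exceeded GDF15 1 by a small fraction of a CPM. Means were 24.4 ± 1.49 CPM in PairFed, 18.2 ± 2.28 CPM in GDF15 and 18.5 ± 1.51 CPM in Vehicle livers (SD, n = 5 each). Egln3 had the smallest differences of the 5 genes, with a log2 difference of 0.41 ± 0.08 (SE) against Vehicle (1.33-fold higher) and 0.43 ± 0.09 against GDF15 (1.35-fold higher). Its PairFed values also had the smallest spread of any gene and group described here, with a coefficient of variation of 6.1%. GDF15 against Vehicle gave -0.02 ± 0.09.

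Gpc1 was the most abundant of the 5. It had 66.7, 81.9, 73.3, 66.8 and 76.7 CPM in PairFed livers, against 46.4, 50.6, 44.5, 53.4 and 58.9 CPM in GDF15 livers and 48.9, 64.5, 47.3, 49.7 and 52.5 CPM in Vehicle livers. All PairFed libraries were above the other 10, and the nearest of those was Vehicle 2, which stood above the rest of its group. Means were 73.1 ± 6.55 CPM in PairFed, 50.8 ± 5.72 CPM in GDF15 and 52.6 ± 6.94 CPM in Vehicle livers (SD, n = 5 each). The log2 difference was 0.48 ± 0.09 (SE) against Vehicle (1.39-fold higher) and 0.53 ± 0.09 against GDF15 (1.44-fold higher), and GDF15 against Vehicle gave -0.05 ± 0.09. Its raw counts were also the largest, at 654 to 1031 in PairFed livers, 363 to 560 in GDF15 livers and 455 to 679 in Vehicle livers.

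Tlr5 was the least abundant, with 17.5, 20.3, 19.9, 19.7 and 15.47 CPM in PairFed livers, against 10.3, 11.8, 12.1, 12.9 and 15.6 CPM in GDF15 livers and 13.8, 12.1, 11.95, 12.7 and 14.2 CPM in Vehicle livers. Here PairFed 5 fell just under GDF15 5, and the other PairFed libraries were above all 10 others. Means were 18.6 ± 2.04 CPM in PairFed, 12.5 ± 1.92 CPM in GDF15 and 13.0 ± 1.03 CPM in Vehicle livers (SD, n = 5 each). The log2 difference was 0.52 ± 0.10 (SE) against Vehicle (1.43-fold higher) and 0.56 ± 0.11 against GDF15 (1.47-fold higher), and GDF15 against Vehicle gave -0.04 ± 0.11. Counts per library ran from 171 to 256 in PairFed livers, 81 to 148 in GDF15 livers and 115 to 174 in Vehicle livers.

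**Figure D1:**
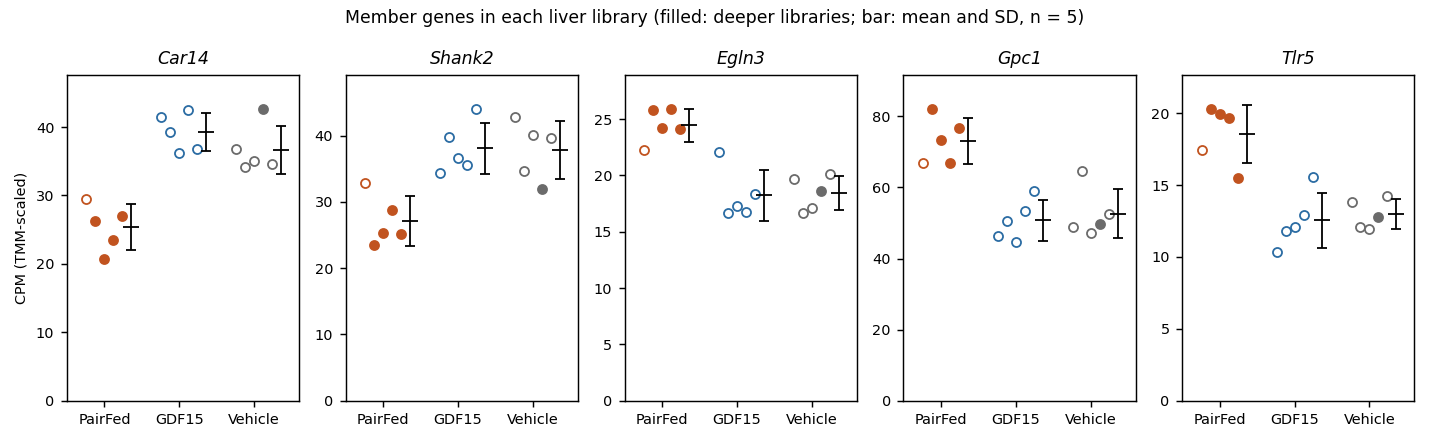
TMM-scaled CPM of Car14, Shank2, Egln3, Gpc1 and Tlr5 in each of the 15 libraries, by group, with the mean and SD of 5 libraries as a bar and filled points for the 5 deeper libraries. PairFed points of Car14 all lie below, and those of Egln3 and Gpc1 all above, the other 10, while Shank2 and Tlr5 overlap by a pair of points each.

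Per kilobase of merged exons, a scale on which genes can be set side by side, Gpc1 had the highest mean level in PairFed livers, at 14.2 CPM per kb, against 9.84 in GDF15 and 10.2 in Vehicle livers. Car14 came next in PairFed livers at 9.98 CPM per kb, against 15.45 in GDF15 and 14.4 in Vehicle livers, where it was the first of the 5. Thus the order of the leading pair was Gpc1 before Car14 in PairFed livers and Car14 before Gpc1 in the other groups. Egln3 had 9.18 CPM per kb in PairFed, 6.85 in GDF15 and 6.93 in Vehicle livers. Tlr5 had 3.87 CPM per kb in PairFed, 2.62 in GDF15 and 2.71 in Vehicle livers. Shank2 had 2.52 CPM per kb in PairFed, 3.53 in GDF15 and 3.51 in Vehicle livers. The merged exons of Shank2 come to 10.77 kb over 5 protein-coding transcripts, so its level per kb is understated where short forms are made. Among the tested genes, Gpc1 stood at the 78.8 percentile of mean log2 CPM, Shank2 at 66.7, Car14 at 66.1, Egln3 at 52.5 and Tlr5 at 42.9.

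The differences were moderate beside the rest of the table. By absolute log2 difference in PairFed against Vehicle, Car14 ranked 705 among the 12274 tested genes, Tlr5 757, Shank2 916, Gpc1 935 and Egln3 1271. At an adjusted p under 0.05 by edgeR's quasi-likelihood test, 0.147% of tested genes were higher and 0.139% lower in PairFed than in Vehicle livers. PairFed against GDF15 gave 0.22% higher and 0.562% lower, and GDF15 against Vehicle 2.02% higher and 0.88% lower. The share of called genes that were higher depended on scaling: it was 51.4% with TMM and 32.5% with upper-quartile factors in PairFed against Vehicle, and 69.7% and 58.7% in GDF15 against Vehicle. All 5 genes passed in the PairFed comparisons, 3 higher and 2 lower, and none in GDF15 against Vehicle, which is what they were chosen for. Both PairFed comparisons use the same PairFed libraries, so their agreement for these genes adds nothing.

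Passing both PairFed comparisons in the same direction, and not GDF15 against Vehicle, applied to 0.0326% of tested genes (higher in both) and 0.0163% (lower in both). These were 6 genes: the 5 described here and Rnf43, a membrane ubiquitin ligase that removes Wnt receptors. Rnf43 averaged 37.6 ± 3.59 CPM in PairFed, 26.4 ± 3.41 CPM in GDF15 and 26.2 ± 2.78 CPM in Vehicle livers (SD, n = 5 each), with log2 differences of 0.52 against Vehicle and 0.51 against GDF15. Egln3 and Shank2 were just inside the threshold. Just outside it were Tardbp, an RNA-binding protein, with log2 differences of -0.48 against Vehicle and -0.38 against GDF15, and Parp12, with 0.26 in each. These genes beside the threshold were picked after their values were seen. By position alone, 0.212% of tested genes had all PairFed libraries above the other 10, Egln3, Gpc1 and Rnf43 among them, and 0.163% had all below, Car14 among them.

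Over the 15 libraries, all pairs had an absolute correlation of log2 CPM between 0.63 and 0.86, a range that the choice of the genes helps to set. After each group's mean was taken away, the 10 pairs ran from -0.38 (Car14 with Tlr5) to 0.31 (Shank2 with Tlr5, and Gpc1 with Tlr5), so that libraries high in one were not, as a rule, high in another. These values describe 15 libraries, in which all genes of a library are scaled together, and carry no test. With group means taken away, the correlation with log2 total count was -0.67 for Shank2. It was 0.15 for Car14, 0.14 for Gpc1, 0.13 for Tlr5 and -0.13 for Egln3.

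The 3 tested genes whose log2 CPM followed each of the 5 most closely over the 15 libraries were looked up as a description. For Car14 they were Gucd1 (r = 0.896), Itih3 (0.892) and Itih1 (0.847), the last 2 being heavy chains of the inter-alpha-trypsin inhibitor that the liver secretes. Itih3 averaged 693.5 CPM in PairFed, 869.2 in GDF15 and 871.8 in Vehicle livers, with log2 differences of -0.33 against each. These genes were picked for their likeness, so no test is given for them. For Shank2 they were Phc3, a Polycomb protein (0.875), Nvl (0.866) and Scn7a (0.857), which had few counts, at 0.349 CPM in PairFed, 1.02 in GDF15 and 1.05 in Vehicle livers. For Egln3 they were Tmem127 (0.884), Rnf40 (0.856) and Slc35c2 (0.855). For Gpc1 they were Atxn2 (0.849), Lpgat1 (0.848) and Parp4 (0.841). For Tlr5 they were Rapgef1 (0.905), Nceh1, a cholesterol ester hydrolase (0.903), and Myo18a (0.891). Nceh1 averaged 57.3 CPM in PairFed, 39.6 in GDF15 and 41.6 in Vehicle livers, with log2 differences of 0.53 ± 0.11 (SE) against GDF15 and 0.46 ± 0.11 against Vehicle.

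The paralogs of the 5 genes did not reach the threshold in the PairFed comparisons. The table held 30 of them, of which 23 were tested by edgeR's quasi-likelihood test. Their lowest adjusted p was 0.127 against Vehicle (Car5a) and 0.165 against GDF15 (Tlr12). Over all 12274 tested genes, 35 passed against Vehicle and 96 against GDF15. At such small shares, 0 of 23 does not set the paralogs apart from other genes. Car5a, the mitochondrial carbonic anhydrase of hepatocytes, averaged 68.2 CPM in PairFed, 73.4 in GDF15 and 56.1 in Vehicle livers. Its log2 difference for PairFed against Vehicle was 0.28 ± 0.09, where Car14 had -0.53. In GDF15 against Vehicle Car5a was at 0.39 ± 0.09 (adjusted p = 0.0212, edgeR), so its higher level was not particular to PairFed livers. With only the groups compared, that adjusted p was 0.0672. Car3, the cytosolic form that dominates in liver, averaged 2650 CPM in PairFed, 2910 in GDF15 and 3100 in Vehicle livers (-0.23 ± 0.14 against Vehicle, adjusted p = 0.418). Shank3, at 6.22 CPM in PairFed, 5.02 in GDF15 and 5.24 in Vehicle livers, gave 0.26 ± 0.24 against Vehicle, and Shank1 had only 60 counts in all and was not tested.

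The other HIF hydroxylases were more abundant than Egln3. Their log2 differences in the PairFed comparisons were smaller, but Egln3 was chosen for its differences, so this is no result. Egln1, the main oxygen sensor of most cells, averaged 43.4 CPM in PairFed, 43.9 in GDF15 and 40.6 in Vehicle livers (0.09 ± 0.05 against Vehicle, adjusted p = 0.336). Egln2 averaged 64.3, 71.1 and 58.8 CPM in PairFed, GDF15 and Vehicle livers (0.13 ± 0.07 for PairFed against Vehicle, adjusted p = 0.354), and it rose in GDF15 against Vehicle (0.27 ± 0.07, adjusted p = 0.0406). That call was lost with upper-quartile factors (adjusted p = 0.0587), with no filter on low counts (0.0526), with only the groups compared (0.0981), in the shallower libraries (0.0765) and without any of Vehicle 1, 3 or 5, GDF15 1, 2 or 4, or PairFed 4 or 5. Gpc4, the only other glypican above a few CPM, averaged 40.7 CPM in PairFed, 42.9 in GDF15 and 43.8 in Vehicle livers (-0.11 ± 0.08 against Vehicle, adjusted p = 0.498). Among Toll-like receptors, Tlr12 was the most abundant, at 37.1 CPM in PairFed, 26.5 in GDF15 and 33.8 in Vehicle livers. Its log2 difference was 0.14 ± 0.15 against Vehicle and 0.49 ± 0.15 against GDF15 (adjusted p = 0.671 and 0.165). Tlr2 senses bacterial lipopeptides and Tlr4 senses lipopolysaccharide. Against Vehicle they had -0.42 ± 0.16 (adjusted p = 0.2) and -0.69 ± 0.26 (adjusted p = 0.184), where Tlr5 had 0.52. Against GDF15 they had 0.03 ± 0.17 and 0.004 ± 0.28. GDF15 against Vehicle gave -0.45 ± 0.17 and -0.70 ± 0.27, so the negative values were not particular to PairFed livers. Tlr4 had only 230 counts in all. Adjusted p-values here are from edgeR's quasi-likelihood test.

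**Figure D2:**
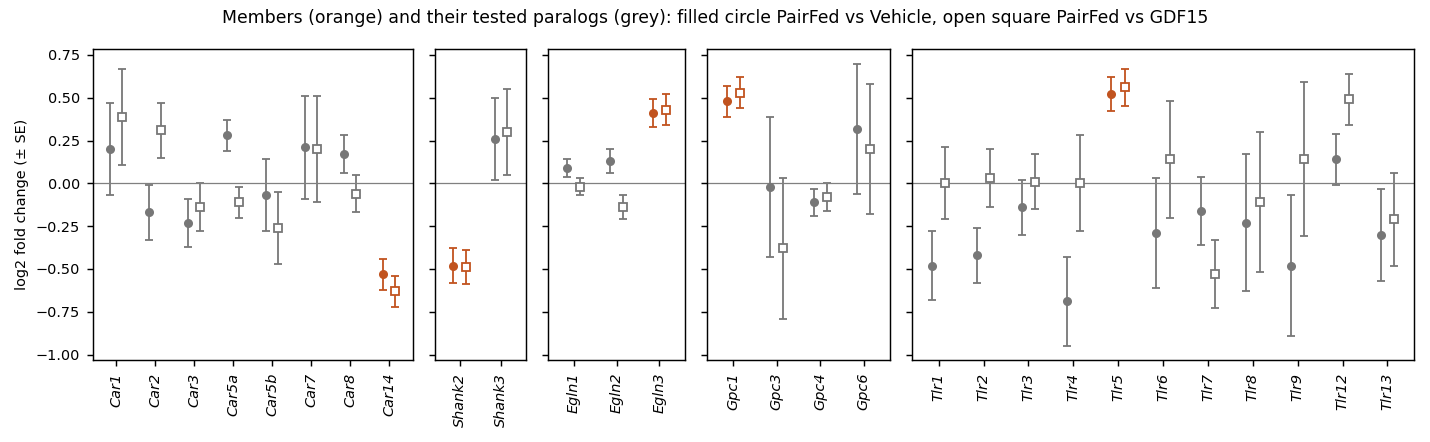
Log2 difference with its SE for the 5 genes (orange) and their tested paralogs (grey), as filled circles for PairFed against Vehicle and open squares for PairFed against GDF15. In each family the orange pair lies away from zero in one direction, such as -0.53 and -0.63 for Car14. The orange genes were chosen for that position and the grey genes were not, so their contrast is no result. The lowest adjusted p of a grey point was 0.127 (Car5a against Vehicle, edgeR).

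The pathways around the 5 genes were followed through lists of their partners, without the 5 genes themselves. Over all tested genes, 16.9% were at an unadjusted p under 0.05 against Vehicle and 13.3% against GDF15, and the counts of each list stand beside these shares. Of 14 tested genes of the carbonic anhydrase and bicarbonate transport list, edgeR's quasi-likelihood test called 0 in either PairFed comparison (2 of 14 at an unadjusted p under 0.05 in each), and DESeq2 and limma-voom also called 0. The median log2 difference was 0.005 against Vehicle and -0.051 against GDF15, beside -0.001 over all tested genes in each. Of 16 Shank partners, edgeR called 0 (4 at an unadjusted p under 0.05 against Vehicle, 3 against GDF15), limma-voom 0, and DESeq2 0 against Vehicle but 1 higher and 1 lower against GDF15, with medians of 0.041 and 0.097.

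For oxygen sensing, edgeR called 0 of 16 hydroxylase and HIF genes (5 at an unadjusted p under 0.05 against Vehicle, 1 against GDF15), limma-voom 0, and DESeq2 1 higher against Vehicle. Epas1, the HIF subunit that dominates in liver, was at 274.0 CPM in PairFed, 289.9 in GDF15 and 209.6 in Vehicle livers, and did not pass in PairFed against Vehicle (0.39 ± 0.10, adjusted p = 0.0797, edgeR). In GDF15 against Vehicle Epas1 passed (0.47 ± 0.10, adjusted p = 0.0167, edgeR). Whether Epas1 bears on Egln3 was not tested. Among 28 HIF target genes other than Egln3, edgeR called 0 in the PairFed comparisons (9 and 4 at an unadjusted p under 0.05 against Vehicle and against GDF15), limma-voom 0, and DESeq2 1 lower against Vehicle, with medians of 0.056 and -0.051.

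Of 33 genes of glypicans, syndecans and heparan sulfate synthesis, edgeR called 0 in the PairFed comparisons (4 at an unadjusted p under 0.05 against Vehicle and 5 against GDF15), limma-voom 0, and DESeq2 2 higher against Vehicle. The medians were 0.047 and -0.017. Of 36 Toll-like receptor pathway genes, edgeR called 0 (8 at an unadjusted p under 0.05 against Vehicle, 7 of them lower, and 3 against GDF15), limma-voom 0, and DESeq2 1 higher and 1 lower against Vehicle. The median was -0.123 against Vehicle and -0.011 against GDF15. Myd88 averaged 17.7 CPM in PairFed, 16.5 in GDF15 and 17.02 in Vehicle livers (0.05 ± 0.10 against Vehicle, adjusted p = 0.83).

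Genes that respond to feeding were set beside the 5 because the groups differ in ration. Of 24 tested genes that fasting is known to raise, edgeR called 0 in PairFed against Vehicle (8 at an unadjusted p under 0.05, 7 of them higher; DESeq2 2, limma-voom 0), with a median log2 difference of 0.232. Against GDF15, edgeR had 3 higher and 7 lower at an unadjusted p under 0.05, DESeq2 called 1 higher and 3 lower, and by edgeR 3 fell: Lpin1, a regulator of fat metabolism (-1.48 ± 0.26, adjusted p = 0.0253), Ppargc1a, a coactivator of gluconeogenesis (-0.87 ± 0.17, adjusted p = 0.0253), and Plin5, a lipid droplet protein (-0.77 ± 0.13, adjusted p = 0.00977). Of 25 genes that feeding raises, the fatty acid desaturases Fads1 (0.46 ± 0.09, adjusted p = 0.036) and Fads2 (0.51 ± 0.10, adjusted p = 0.0408) rose in PairFed against Vehicle by edgeR's test. Fads1 averaged 1248 CPM in PairFed, 1328 in GDF15 and 908.6 in Vehicle livers, so PairFed lay near GDF15. Ppargc1a, at 13.5 CPM in PairFed, 24.6 in GDF15 and 12.1 in Vehicle livers, had PairFed beside Vehicle. None of these 5 calls held with the depth term described for the 5 genes further on, or in the shallower libraries alone. With the depth term, Plin5 was at -0.78 and Lpin1 at -1.05 against GDF15. With only the groups compared, those of Lpin1 (adjusted p = 0.0784), Ppargc1a (0.0735) and Fads2 (0.0713) were lost. The calls of Lpin1 and Ppargc1a were also lost without GDF15 1, GDF15 2, PairFed 4 or PairFed 5 (Ppargc1a also without PairFed 3). Those of Fads1 and Fads2 were lost without Vehicle 1, 2, 3 or 4, GDF15 4, or PairFed 2, 3, 4 or 5, and that of Fads2 also without GDF15 2 or GDF15 5, with values from 0.40 to 0.53 and from 0.43 to 0.59.

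Markers of other liver cells were summed in each library because the 5 genes are made by more than hepatocytes. Summed markers of 12 endothelial genes ran from 219.8 to 385.1 CPM in PairFed livers, 130.3 to 352.0 in GDF15 livers and 175.1 to 292.5 in Vehicle livers. All 12 had positive log2 differences in PairFed against Vehicle, with a median of 0.326, and edgeR called 0 of them (0 at an unadjusted p under 0.05, and 0 by DESeq2 and limma-voom). Against GDF15, 11 of the 12 were positive, with a median of 0.385, and edgeR called 0 (2 higher at an unadjusted p under 0.05, and 0 by DESeq2 and limma-voom). Bile duct and progenitor markers ran from 175.8 to 299.8 CPM in PairFed livers, 150.1 to 344.1 in GDF15 livers and 221.7 to 507.5 in Vehicle livers, and 1 of the 9 tested, Sox9, fell against Vehicle (-1.31 ± 0.24, adjusted p = 0.0336, edgeR), a call that was also lost with the depth term. Of these 9, 0 were positive against Vehicle, with a median log2 difference of -0.586. Against GDF15, 3 were positive, with a median of -0.475. In GDF15 against Vehicle, 1 was positive, with a median of -0.216. Monocyte and macrophage markers ran from 197.7 to 345.5 CPM in PairFed livers, 214.0 to 368.4 in GDF15 livers and 246.9 to 443.3 in Vehicle livers. Of these 10, 0 were positive against Vehicle, with a median of -0.644. Here edgeR called 0 (5 lower at an unadjusted p under 0.05), limma-voom 0 and DESeq2 1 lower. In GDF15 against Vehicle 0 were positive too, with a median of -0.435, and edgeR called 1 lower. PairFed against GDF15 had 4 positive and a median of -0.039, so the lower values against Vehicle were found in both groups. Kupffer cell sums were 457.9 to 591.2, 311.8 to 691.6 and 476.7 to 678.4 CPM in PairFed, GDF15 and Vehicle livers, and stellate cell sums 385.0 to 631.8, 255.9 to 643.3 and 458.0 to 813.4 CPM. All these ranges overlapped between groups. All 12 endothelial, 12 stellate cell and 11 Kupffer cell markers had counts in every library. Of 10 hepatocyte markers, edgeR called 0 in PairFed against Vehicle (2 higher at an unadjusted p under 0.05). It called 2 lower in PairFed against GDF15 and 3 higher in GDF15 against Vehicle (5 and 6 at an unadjusted p under 0.05). Of 4 tested T and NK cell markers, all with few counts, 0 were positive against Vehicle in PairFed livers (median -0.953) or in GDF15 livers (median -1.473). Of 6 markers of neighbouring tissues in the table, Umod was at 0 in 13 libraries and Krt20 in 4. Cela1, Fabp2, Msln and Upk3b had counts in every library, and Fabp2 averaged 125 CPM. Sums of the 6 ran from 136.2 to 145.7 CPM in PairFed, 125.3 to 162.7 in GDF15 and 121.4 to 150.0 in Vehicle livers. The part of these cells in the differences of the 5 genes was not tested.

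Depth was tied to group, and the 5 genes were therefore set against it. For Car14 the shallow PairFed 1 had 29.5 CPM, against 34.2 to 42.6 CPM in the 9 other shallower libraries. The 4 deeper PairFed libraries had 20.6 to 27.0 CPM, against 42.6 CPM in the deeper Vehicle 4. Car14 was lower in PairFed on both sides of the gap. Each side rests on 1 library, PairFed 1 or Vehicle 4. The 5 genes were chosen because PairFed stood apart, so positions like these were close to given and are no independent support. Gpc1 had 66.7 CPM in PairFed 1 against 44.5 to 64.5 CPM in the other shallower libraries, and 66.8 to 81.9 CPM in the deeper PairFed libraries against 49.7 CPM in Vehicle 4. Tlr5 had 17.5 CPM against 10.3 to 15.6 CPM, and 15.47 to 20.3 CPM against 12.7 CPM, in the same order. Both lay higher in PairFed on either side, under the same limit. Egln3 had 22.2 CPM in PairFed 1 against 16.6 to 22.1 CPM, and 24.1 to 25.9 CPM in the deeper PairFed libraries against 18.6 CPM in Vehicle 4. Shank2 had 32.9 CPM in PairFed 1 against 34.4 to 43.9 CPM, and 23.5 to 28.8 CPM against 31.9 CPM in Vehicle 4. Shank2 was therefore lower in the deep Vehicle library than in every other Vehicle and GDF15 library, which was not so for Car14.

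**Figure D3:**
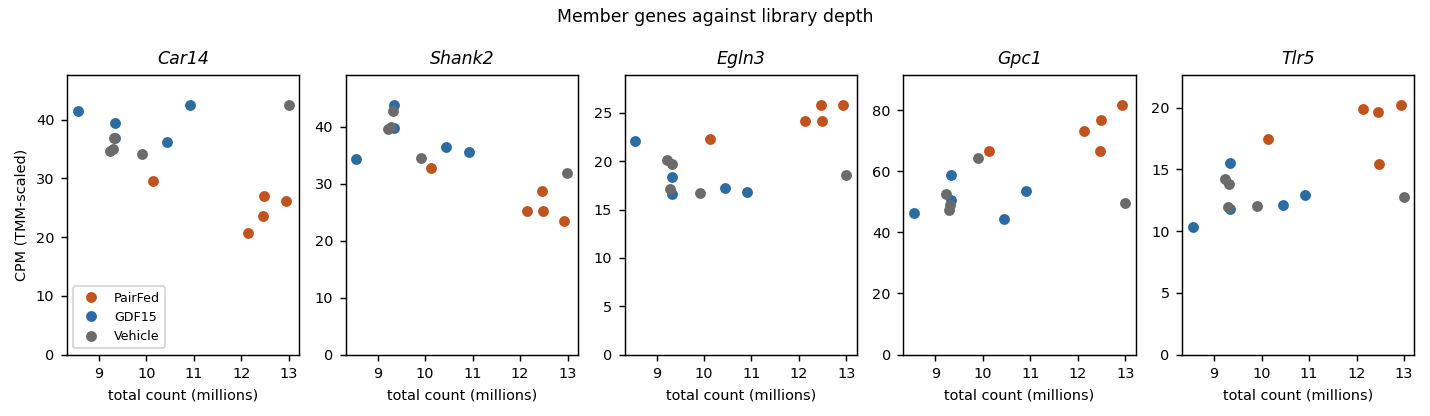
TMM-scaled CPM of each gene against the total count of the library, with PairFed, GDF15 and Vehicle in separate colours. The deep Vehicle library lies with the shallower GDF15 and Vehicle libraries for Egln3, Gpc1 and Tlr5 and at their top for Car14, at 42.6 CPM, while for Shank2 it is the lowest of them, at 31.9 CPM.

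With a term for the deeper libraries in the fit, the log2 differences against Vehicle were -0.54 for Car14, -0.29 for Shank2, 0.35 for Egln3, 0.46 for Gpc1 and 0.49 for Tlr5. Shank2 moved the most, by more than the replicate spread, and the other 4 kept most of their size. With only the shallower libraries, where PairFed 1 stands alone and is assumed to vary like the other groups, they were -0.26 for Car14, -0.26 for Shank2, 0.27 for Egln3, 0.32 for Gpc1 and 0.42 for Tlr5. Counts thinned to the smallest total gave -0.59, -0.48, 0.44, 0.49 and 0.53 in the same order. The sign was the same throughout, in libraries that were also used to choose the genes. With the depth term none of the 5 passed the threshold in either PairFed comparison, and the edgeR test then called 0 genes in PairFed against Vehicle (1361 at an unadjusted p under 0.05) and 9 in PairFed against GDF15. With the shallower libraries alone it called 0 in each (514 and 406 at an unadjusted p under 0.05). With 4 of 5 deeper libraries in 1 group, depth and pair feeding can be told apart only through PairFed 1 and Vehicle 4.

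**Figure D4:**
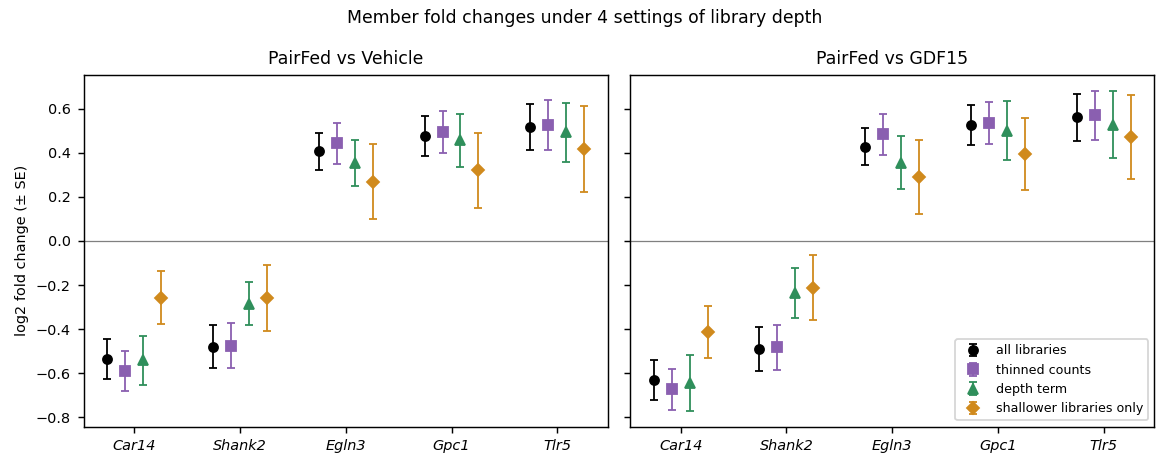
Log2 difference with its SE of each gene in PairFed against Vehicle (left) and PairFed against GDF15 (right), from all libraries, from thinned counts, with a depth term and from the shallower libraries only. Every value keeps its sign, in libraries that were also used to choose the genes. Shank2 lies nearest to 0 under the depth term, at -0.29 against Vehicle. Car14 and Shank2 are both at -0.26 against Vehicle in the shallower libraries.

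Single libraries decided how many of the 5 passed in both PairFed comparisons. Leaving out Vehicle 1, Vehicle 3, PairFed 2 or PairFed 4 left 0 of the 5, and leaving out GDF15 2, GDF15 4 or PairFed 3 left Car14 alone. Without Vehicle 2 there were 2 (Car14 and Gpc1), without Vehicle 4 there were 2 (Car14 and Shank2), without PairFed 5 there were 2 (Car14 and Tlr5), and without GDF15 5 there were 3 (Car14, Gpc1 and Tlr5). Without Vehicle 5 or GDF15 1 there were 4, and without GDF15 3 or PairFed 1 all 5. Car14 passed in every one of these sets that held any gene. The sizes themselves moved little: without each library in turn, the log2 difference against Vehicle ran from -0.59 to -0.47 for Car14, from -0.55 to -0.43 for Shank2, from 0.37 to 0.44 for Egln3, from 0.43 to 0.56 for Gpc1 and from 0.48 to 0.58 for Tlr5.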

How the data were processed

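Liver RNA of 15 mice was sequenced from strand-keeping libraries, per the labels' protocols. Salmon, DESeq2 and build mm10 are named in the submitters' processing notes; the transcript set and the strand setting were not given in the sources used here, so overlapping genes may hold each other's reads. The authors deposited whole-number estimated counts per gene symbol, taken here as rounded expected counts and not scaled to depth. Every gene summed to at least 5 counts.

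Columns were assigned to groups by name and could not be tied to single animals. Genes were filtered with filterByExpr (count 10, total 15) in edgeR 4.0.16 (R 4.3.3), which left 99.92% of counts. Libraries were TMM-scaled, and 1 quasi-likelihood model of the 15 libraries gave 3 two-sided contrasts, adjusted by Benjamini-Hochberg over 12274 genes. SE was derived from the F statistic. The common biological coefficient of variation was 13.3%, and depth limits precision through counts of 81 to 1031 for the 5 genes. The test was tried on simulated data in which all genes had the same spread and depth was given no effect of its own. That trial does not bear on the part of depth in these data. The genes, lists and rules were chosen with earlier results of these data known. Named are the 5 genes, their paralogs, the 3 most alike genes of each, list members called in a PairFed comparison, up to 4 a list, and genes apart in PairFed; Epas1, Myd88, Sox9 and the genes beside the threshold were picked after their values were seen.

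Alternatives were other scaling factors, other filters, DESeq2 1.42.0, limma-voom (limma 3.58.1), only the groups compared, thinned counts, a term for depth, only the shallower libraries, and leaving out each library.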

Additional observations from a re-analysis of the deposited data

Results flagged for a closer look

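Of 18 groups of 5 values examined (total counts and the 5 genes, in each group), 2 held a value far from the rest, and chance gives about 1 in 20. Both were total counts. PairFed 1, at 10133289, lay below the next PairFed library, at 12137462, and Vehicle 4, at 12994187, lay above the next Vehicle library, at 9906526. These are the libraries through which depth and pair feeding can be told apart. No value of Car14, Shank2, Egln3, Gpc1 or Tlr5 was so far from its group.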

How the results depend on the processing

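All 250 log2 differences of the 5 genes in the PairFed comparisons kept their sign over 10 alternatives and 15 sets without a library. The genes were chosen for these differences in the same libraries, so kept signs were close to given and are no independent support. Of 375 values, the third comparison included, 367 stayed within 1 SD of the replicates and 8 moved. With a depth term Shank2 was at -0.285 against Vehicle and -0.236 against GDF15. In the shallower libraries Car14 was at -0.257 and -0.413, Shank2 at -0.259 and -0.212, and Egln3 at 0.269 and 0.291.

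The number of the 5 genes apart in PairFed was 3 with upper-quartile factors, 3 with thinned counts, 0 with the depth term and 0 in the shallower libraries, and ran from 0 to 5 without a library. Genes apart in PairFed, 6 in all, became 11 with the strict filter, 32 with DESeq2, 0 with the depth term and 0 in the shallower libraries, and 0 to 25 without a library (25 without PairFed 1). Genes called were 339 (PairFed against Vehicle), 259 (PairFed against GDF15) and 642 (GDF15 against Vehicle) with DESeq2, beside 35, 96 and 356. They were 0 and 9 in the PairFed comparisons with the depth term, and 0, 0 and 151 in the shallower libraries. With only the groups compared, GDF15 against Vehicle gave 194. Without a library they ran from 0 to 135, 21 to 171 and 134 to 476 in the same order. The share called higher in PairFed against Vehicle was 38.5% with the strict filter, beside 51.4%. For the other named genes, 308 of their values kept the side of the threshold and 92 fell short of it, with none reversed. The cause of these shifts was not tested. No paired analysis was possible because nothing ties a PairFed animal to a GDF15 or Vehicle animal.

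Calls on 5 libraries a group with Egln3 and Shank2 just inside the threshold depend on single libraries, and depth is only partly separable from group.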
